A study of Mus musculus with 12 samples.

Results

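The genes described are 38 genes of glucose breakdown, chosen by name: glucose transporters, the enzymes of glycolysis from hexokinase to lactate dehydrogenase, lactate transporters, enzymes that admit pyruvate to the mitochondrion, 2 genes of the hypoxia response and 4 enzymes of the pentose phosphate pathway. All 38 were found among the 24107 genes of the table, and 37 passed the filter on low values (at least 1 FPKM, a length- and depth-scaled count of RNA fragments, in at least 3 libraries). Eno2, an enolase gene best known from neurons, did not pass.

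RNA had been sequenced from 12 libraries of C57BL/6 mice, 3 in each of 4 groups. Control MEP were megakaryocyte-erythroid progenitors, the marrow cells that give rise to platelets and red cells, from wild-type mice. Control marrow was whole, unselected bone marrow of mice of the same genotype. Leukemic MEP and GFP+ marrow carried the genotype Prdm16s and came from leukemic recipients, and the marrow group had been selected for the green fluorescent protein GFP. Prdm16s is the short form of the transcription factor Prdm16. The effects of the Prdm16s genotype, of leukemia and of being a recipient cannot be told apart with these groups, and in marrow the GFP selection is added to them. Levels of Xist, an RNA of the inactive X chromosome, also set some Prdm16s libraries apart from the controls, as given below. The part of sex in the differences was not tested. Whether the libraries of a group stem from separate mice is not stated in the labels. The p-values therefore rest on the spread among these libraries alone, which may be technical.

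Glycolysis turns glucose into pyruvate with a small yield of ATP, and several of its steps are made by isoenzymes whose genes are used in different tissues. Pyruvate then becomes lactate, or enters the mitochondrion through pyruvate dehydrogenase. Mature red cells lack mitochondria and live on glycolysis, and they use their own pyruvate kinase, encoded by Pklr. Most proliferating cells and white blood cells use the product of Pkm instead. The pentose phosphate pathway branches off after hexokinase and supplies NADPH and ribose. In phagocytes NADPH feeds the oxidase that makes reactive oxygen.

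Whole reads recovered from the FPKM values came to between 6.72 and 9.71 M reads in 10 libraries. They came to 0.572 M in leukemic MEP 3 and to 1.15 M in GFP+ marrow 2. Leukemic MEP 3 stood apart from the other leukemic MEP libraries, with a Pearson r over genes of 0.806 and 0.794 against 0.966 between those 2. The summed FPKM of 11 granulocyte markers was 1026, 2477 and 100346 in leukemic MEP 1, 2 and 3, between 27.5 and 403 in control MEP, and between 77151 and 131773 in the 6 marrow libraries. The 8 monocyte and macrophage markers summed to 13.9, 12.05 and 1268 FPKM in leukemic MEP 1, 2 and 3, and to between 2.98 and 12.4 in control MEP. The 8 erythroid markers summed to between 1724 and 2333 FPKM in control MEP, 83.6 to 360 in leukemic MEP, 731 to 1084 in control marrow and 20.9 to 135 in GFP+ marrow. The 7 megakaryocyte markers summed to between 9.66 and 124 FPKM in control MEP and to 5685, 4660 and 299 in leukemic MEP 1, 2 and 3. The 5 basophil and mast cell markers summed to 4.70 to 8.68 FPKM in control MEP and 281 to 678 in leukemic MEP, and the 6 B cell markers to 2.07 to 4.79 and 30.3 to 77.8. From control to GFP+ marrow the monocyte and macrophage sum went from 1683 to 1798 FPKM down to 418 to 813, the B cell sum from 130 to 155 down to 80.7 to 115, and all 4 T and NK cell markers were at 0 in GFP+ marrow. In bulk samples fewer cells of a type and less RNA per cell cannot be told apart. Because of leukemic MEP 3, results on MEP that turn on it are given below with and without it.

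The pair of genes on which the results turn most are the pyruvate kinase genes, and their promoter windows are therefore shown first. Pklr has a pair of tandem promoters, of which the upstream one serves red cell precursors and the downstream one the liver. GATA1, a transcription factor of red cells and megakaryocytes, binds motifs with the core GATA, and factors of the KLF1 and SP families bind CACC boxes. Both RefSeq windows of each gene are printed 5′ to 3′ on the gene's strand, from 250 bases before to 50 after an annotated start (GRCm38.p6, both genes on the + strand). Capitals mark the letters AGATAA or TGATAA and the letters CCNCNCCC, searched on both strands, with overlapping matches joined. The windows lie at chr3:89135892-89136191 and chr3:89136373-89136672 for Pklr and at chr9:59656326-59656625 and chr9:59656977-59657276 for Pkm.
Pklr upstream: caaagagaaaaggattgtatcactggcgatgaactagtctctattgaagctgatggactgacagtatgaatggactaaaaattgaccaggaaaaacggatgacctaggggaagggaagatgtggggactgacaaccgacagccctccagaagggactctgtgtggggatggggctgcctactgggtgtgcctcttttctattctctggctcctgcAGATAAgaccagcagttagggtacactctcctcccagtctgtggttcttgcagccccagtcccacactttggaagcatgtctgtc
Pklr downstream: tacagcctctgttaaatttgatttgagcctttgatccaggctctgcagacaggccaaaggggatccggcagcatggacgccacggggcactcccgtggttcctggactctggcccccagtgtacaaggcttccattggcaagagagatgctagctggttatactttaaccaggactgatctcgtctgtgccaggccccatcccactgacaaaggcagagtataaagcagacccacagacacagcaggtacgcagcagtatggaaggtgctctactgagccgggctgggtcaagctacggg
Pkm upstream: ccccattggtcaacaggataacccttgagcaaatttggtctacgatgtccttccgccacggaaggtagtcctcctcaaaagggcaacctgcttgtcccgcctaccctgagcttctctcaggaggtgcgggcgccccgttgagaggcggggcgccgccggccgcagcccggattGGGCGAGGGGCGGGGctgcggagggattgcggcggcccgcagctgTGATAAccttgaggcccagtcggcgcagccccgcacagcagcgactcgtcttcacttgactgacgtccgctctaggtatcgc
Pkm downstream: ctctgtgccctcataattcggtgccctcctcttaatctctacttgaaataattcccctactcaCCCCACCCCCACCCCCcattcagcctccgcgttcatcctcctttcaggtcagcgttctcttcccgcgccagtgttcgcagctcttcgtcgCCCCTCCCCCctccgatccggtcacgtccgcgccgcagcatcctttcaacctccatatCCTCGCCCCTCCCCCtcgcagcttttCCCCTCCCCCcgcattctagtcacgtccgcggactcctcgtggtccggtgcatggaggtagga
The upstream Pklr window holds 1 match to the GATA letters and none to the CACC letters, and the downstream one holds neither. The upstream Pkm window holds 1 GATA match and 2 CACC matches, and the downstream one 11 CACC matches in 4 separate stretches, within which they overlap. RefSeq gave 55 windows for 37 of the 38 genes, and Slc2a3 had none. The GATA letters were in 16.4% of these 55 windows and in 18.6% of all 32851 windows of the same length. The CACC letters were in 80.0% against 49.5%, the hypoxia core ACGTG, which is also part of the E-box CACGTG, in 47.3% against 19.6%, and the PU.1 core GAGGAA in 27.3% against 28.3%. These matches are descriptions of sequence only.

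The comparison of leukemic with control MEP asks how glucose metabolism genes differ between these 2 groups. Of 5 sort and lineage markers of MEP, Cd34 and Gata2 were called higher in leukemic MEP, and Kit, Gata1 and Fcgr3 were not called. In limma without leukemic MEP 3, Kit fell (-1.59 ± 0.38, adjusted p = 0.00911). Whether the groups match in stage was not tested. Isoenzyme genes changed in opposite directions: Pklr, Pfkm, Hk1 and Slc16a1 fell, while Pkm, Pfkp, Hk3, Ldhb and Slc16a3 rose. The leading gene of its family changed in all 3 libraries for pyruvate kinase, from Pklr to Pkm, while Ldha and Slc16a1 went on leading theirs. The call of Hk1 was lost in 13 of 22 alternatives. Both glucose transporter genes among the 38 rose, and both pyruvate dehydrogenase E1 genes fell. In limma without leukemic MEP 3, Slc2a1 did not pass (adjusted p = 0.051). Slc2a8, a sugar transporter gene outside the 38 and named after its values were seen, fell. It also fell without leukemic MEP 3 (-1.42 ± 0.34, adjusted p = 0.00817). In limma, 12 of the 37 tested genes rose and 8 fell at an adjusted p below 0.05, beside 13.7% and 12.3% of all 11462 genes tested. Without leukemic MEP 3 the counts were 11 and 10, for which the shares of all genes are not given here. The median log2 difference was 0.37 over these genes and 0.02 over all genes. Differences are of log2(FPKM + 1) with their SE, a scale that understates the change of low genes.

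GFP+ marrow was compared with control marrow, which was not selected, so the GFP selection is part of this contrast. Aldoa, Pgk1, Ldhb and Pfkp rose, and Pklr, Pfkm and Bpgm fell, so 4 of 37 rose and 3 fell, beside 3.02% and 6.03% of all genes. With libraries rescaled to equal FPKM totals the counts were 2 and 4, and with quantile normalization 3 and 4. With leukemic MEP 3 left out of the shared fit they were 10 and 5. The shares of all genes under these alternatives are not given here, so the counts alone do not set these genes apart. The median was -0.07 here and -0.05 over all genes. Rescaling to equal totals moved the all-gene median in marrow to -0.25.

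**Figure D1:**
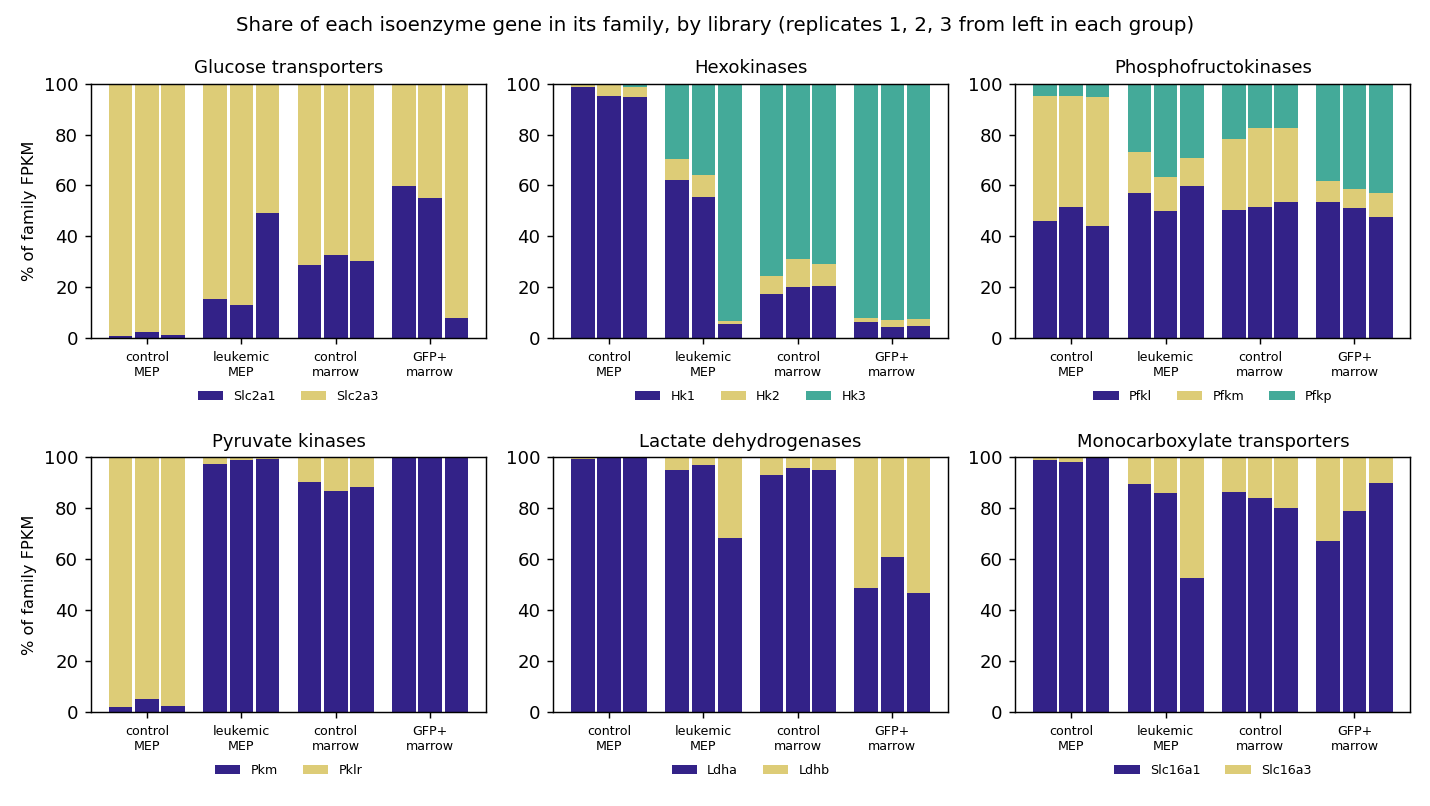
Stacked bars give the percent of the summed FPKM of a family (y axis) held by each isoenzyme gene in each of the 12 libraries; bars stand in groups of 3, replicates 1 to 3 from the left. Pkm held at most 5.23% in control MEP and at least 97.6% in leukemic MEP; Pfkp passed Pfkm in all 3 leukemic MEP libraries, whereas Hk3 passed Hk1 in leukemic MEP 3 alone and Ldha and Slc16a1 kept the larger share in leukemic MEP.

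Pyruvate kinase makes pyruvate in the last step of glycolysis. Pkm (chr9:59656576-59679372) was at 1.45, 3.97 and 1.24 FPKM in control MEP, at 89.8, 58.4 and 307 in leukemic MEP, at 150, 139 and 164 in control marrow, and at 358, 312 and 423 in GFP+ marrow. The lowest leukemic MEP library lay far above the highest control MEP library, and the highest leukemic value was that of leukemic MEP 3. Pkm rose by 5.30 ± 0.49 in MEP (adjusted p = 1.52e-05), and by 4.61 ± 0.31 without leukemic MEP 3 (adjusted p = 1.09e-06). In marrow its difference was 1.26 ± 0.49 (adjusted p = 0.14), although the groups did not overlap; without leukemic MEP 3 in the fit the adjusted p was 0.00832.

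Pklr (chr3:89136122-89146815), the pyruvate kinase of red cells and liver, was at 76.9, 71.9 and 55.3 FPKM in control MEP and at 2.21, 0.524 and 2.39 in leukemic MEP. All 3 leukemic MEP libraries were low, leukemic MEP 1 and 2 as well as 3. Levels in control marrow were 16.1, 21.4 and 21.5 FPKM, and in GFP+ marrow 2 libraries were listed at 0 and the third at 0.295 FPKM, which is 7 reads. Pklr fell by 4.74 ± 0.32 in MEP (adjusted p = 2.01e-06) and in marrow by 4.23 ± 0.32 (adjusted p = 9.56e-06). The size in marrow depends on the constant added before the logarithm, and ranged from -7.45 to -3.91 over the alternatives. From group to group the erythroid marker sum went the same way as Pklr. Within leukemic MEP it did not, at 360, 280 and 83.6 FPKM in replicates 1, 2 and 3. Of the 8 markers, 6 were called lower in leukemic than in control MEP, and all 8 in GFP+ marrow. Alas2 and Slc4a1 were not called in MEP, and were lower in control MEP than in control marrow. The part of the erythroid markers in the fall of Pklr was not tested.

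As a share of the FPKM of both pyruvate kinase genes, Pkm made up 3.09% ± 1.86 (SD, n = 3) in control MEP and 98.6% ± 0.911 in leukemic MEP. In control marrow it made up 88.5% ± 1.82 and in GFP+ marrow 99.98% ± 0.0402. The differences were 95.6 and 11.5 percentage points. Each had an exact 2-sided permutation p of 0.1, the smallest that 3 libraries against 3 allow. Leukemic MEP 1 and 2 alone gave 98.4%. The splice forms of Pkm, M1 and M2, are not separated in a table of genes.

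**Figure D2:**
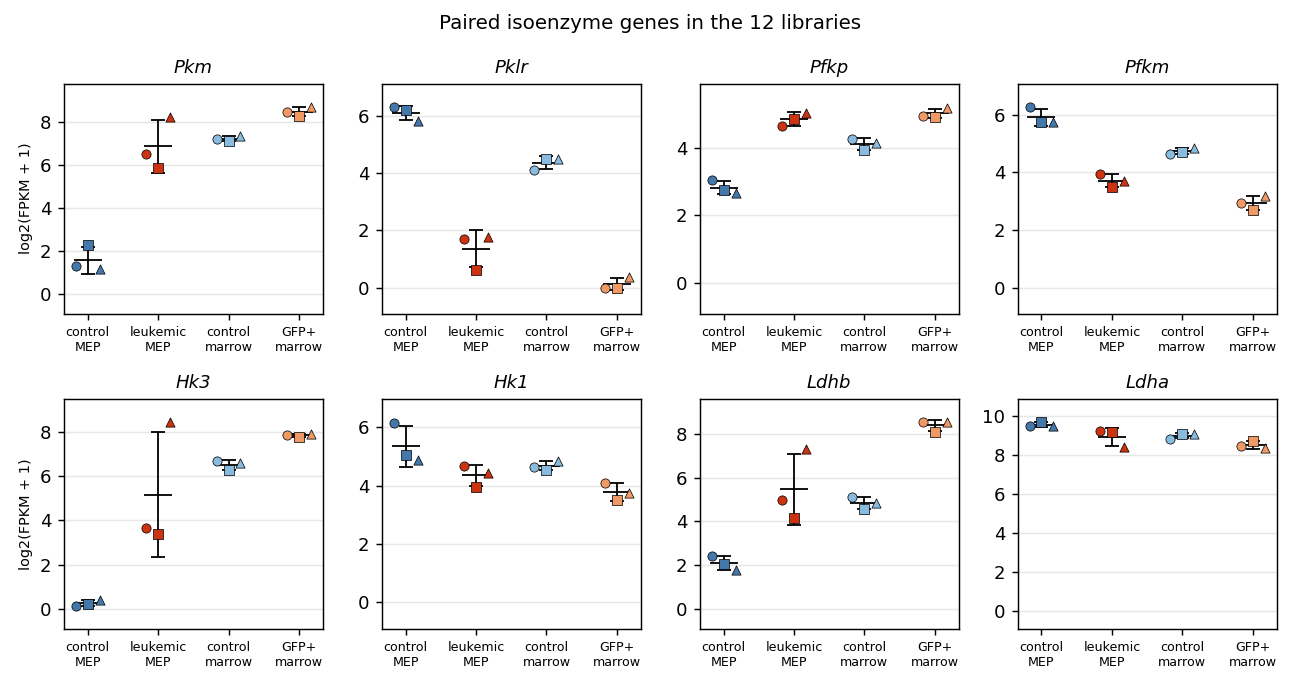
Each panel plots log2(FPKM + 1) of a gene (y axis) in the 4 groups; circles, squares and triangles are replicates 1, 2 and 3, and bars are the mean ± SD of the 3 libraries. Pkm and Pklr change places between control and leukemic MEP in every library, whereas for Hk3 and Ldhb the triangle, leukemic MEP 3, lies well above the other leukemic MEP libraries.

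Phosphofructokinase commits sugar to glycolysis, and its liver, muscle and platelet subunits are encoded by Pfkl, Pfkm and Pfkp. Pfkm (chr15:98092589-98132447), which red cells also use, was at 75.5, 52.3 and 52.7 FPKM in control MEP, at 14.3, 10.3 and 12.1 in leukemic MEP, at 23.7, 25.3 and 27.6 in control marrow, and at 6.62, 5.47 and 7.97 in GFP+ marrow. The 3 leukemic MEP libraries lay close together, below every control MEP and control marrow library. Pfkm fell by 2.20 ± 0.23 in MEP (adjusted p = 3.13e-05) and in marrow by 1.80 ± 0.23 (adjusted p = 0.000489). Pfkp (chr13:6579874-6649060) was at 7.19, 5.77 and 5.33 FPKM in control MEP, at 24.1, 28.1 and 31.9 in leukemic MEP, at 18.2, 14.2 and 16.8 in control marrow, and at 29.8, 29.3 and 35.2 in GFP+ marrow. Here too all 3 leukemic MEP libraries agree closely, and neither pair of groups overlapped. Pfkp rose by 2.03 ± 0.21 in MEP (adjusted p = 3.09e-05) and in marrow by 0.90 ± 0.21 (adjusted p = 0.0182; 0.106 with equal FPKM totals). Pfkl did not pass the test in either comparison, with differences of -0.21 and -0.20, and held 47.2% to 55.6% of the family in the 4 group means. The share of Pfkm went from 47.9% to 13.5% in MEP and from 29.3% to 8.61% in marrow, and that of Pfkp from 4.88% to 30.9% and from 18.9% to 40.7%.

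Hexokinases trap glucose in the cell as glucose 6-phosphate. Hk1, the form used by red cells and brain, was at 70.3, 31.7 and 28.2 FPKM in control MEP and at 24.7, 14.7 and 20.4 in leukemic MEP. The groups did not overlap, and control MEP 1 was high even among the controls. Hk1 fell by 0.99 ± 0.33 (adjusted p = 0.0423), and without leukemic MEP 3 the adjusted p was 0.0521. Hk3 (chr13:55005985-55021475), a form known from granulocytes and monocytes, was at 0.0985, 0.165 and 0.342 FPKM in control MEP (3, 4 and 8 reads), 11.8, 9.51 and 349 in leukemic MEP, 103, 76.3 and 95.4 in control marrow, and 235, 215 and 236 in GFP+ marrow. It was above control MEP in each leukemic MEP library, and leukemic MEP 3 was about as high as GFP+ marrow or higher. Hk3 rose by 4.91 ± 0.96 in MEP (adjusted p = 0.00286), and by 3.27 ± 0.20 without leukemic MEP 3 (adjusted p = 6.82e-07). The granulocyte marker sum was high in the same library, and its part in the rise of Hk3 was not tested. In marrow the difference of Hk3 was 1.32 ± 0.96 (adjusted p = 0.439; 0.000361 without leukemic MEP 3 in the fit).

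Hk2, the form that insulin and hypoxia are known to raise, was at 0.818, 1.44 and 1.22 FPKM in control MEP and at 3.21, 2.18 and 5.47 in leukemic MEP. In marrow it lay the other way round, at 9.26, 12.3 and 11.2 FPKM in control and 3.89, 6.05 and 6.74 in GFP+ libraries. Hk2 rose by 1.05 ± 0.31 in MEP (adjusted p = 0.0284; 0.0708 without leukemic MEP 3) and its difference in marrow was -0.88 ± 0.31 (adjusted p = 0.109). Of the hexokinase FPKM, Hk1 held 96.2% ± 2.17 in control MEP and 62.3%, 55.7% and 5.44% in leukemic MEP 1, 2 and 3. Hk3 held 71.8% ± 3.52 in control marrow and 92.5% ± 0.403 in GFP+ marrow.

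Glucose enters these cells through transporters encoded by Slc2a1 (GLUT1) and Slc2a3 (GLUT3). Slc2a1 (chr4:119108745-119137330) was at 0.125, 0.209 and 0.109 FPKM in control MEP (3, 4 and 2 reads) and at 4.09, 3.33 and 20.2 in leukemic MEP. Control marrow stood at 9.42, 9.70 and 7.75 FPKM, and GFP+ marrow at 18.0, 14.8 and 1.01. The GFP+ libraries thus straddled the control ones. Slc2a1 rose by 2.76 ± 0.76 in MEP (adjusted p = 0.019), by 2.03 ± 0.71 without leukemic MEP 3 (adjusted p = 0.051), and by 4.76 with a constant of 0.1 FPKM. Slc2a3 (chr6:122727809-122802363) was at 13.1, 8.47 and 8.33 FPKM in control MEP, at 22.7, 21.9 and 20.9 in leukemic MEP, at 23.2, 19.96 and 18.0 in control marrow, and at 11.999, 11.98 and 11.9 in GFP+ marrow. Its leukemic MEP libraries lay within the range of control marrow, and its GFP+ marrow libraries within that of control MEP. Slc2a3 rose by 1.08 ± 0.22 in MEP (adjusted p = 0.00355), with a difference of -0.72 ± 0.22 in marrow (adjusted p = 0.063).

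Between the 2 kinase steps, Gpi1, which converts glucose 6-phosphate to fructose 6-phosphate, was at 42.9 to 60.2 FPKM in control MEP and at 78.7, 62.9 and 415 in leukemic MEP. Its difference of 1.31 ± 0.52 did not pass (adjusted p = 0.0854), and leukemic MEP 3 was the high library; without it the difference was 0.46 ± 0.20 (adjusted p = 0.111). The Pfkfb genes encode enzymes that set fructose 2,6-bisphosphate, the activator of phosphofructokinase. Pfkfb3, whose product mostly makes it, was at 2.02, 1.36 and 0.719 FPKM in control MEP and 6.30, 3.84 and 7.43 in leukemic MEP. It rose by 1.53 ± 0.33 (adjusted p = 0.00536). Pfkfb2 and Pfkfb4 passed in neither comparison. Pfkfb4 was uneven within both Prdm16s groups, at 1.65, 1.21 and 10.1 FPKM in leukemic MEP and at 1.51, 1.27 and 13.1 in GFP+ marrow.

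The lower part of glycolysis splits the sugar and harvests ATP. Aldoa, the main aldolase gene here, was at 303, 407 and 302 FPKM in control MEP, at 493, 352 and 556 in leukemic MEP, at 336, 392 and 443 in control marrow, and at 720, 721 and 819 in GFP+ marrow. Only the GFP+ marrow group stood clear of its control. Aldoa rose by 0.95 ± 0.23 in marrow (adjusted p = 0.0244; 0.118 with quantile normalization), and differed by 0.46 ± 0.23 in MEP (adjusted p = 0.172). Aldoc stayed at 2.38 FPKM or below in all libraries, and rose in MEP when leukemic MEP 3, where it was listed at 0, was left out (1.36 ± 0.36, adjusted p = 0.0146). Tpi1, triose phosphate isomerase, was at 313, 421 and 321 FPKM in control MEP and at 239, 204 and 280 in leukemic MEP, with a difference of -0.54 ± 0.20 (adjusted p = 0.0634; 0.0201 without leukemic MEP 3). Bpgm makes 2,3-bisphosphoglycerate, which lowers the oxygen affinity of hemoglobin. It was at 24.8, 30.4 and 24.8 FPKM in control marrow and 10.4, 12.4 and 5.12 in GFP+ marrow, and fell there by 1.49 ± 0.40 (adjusted p = 0.038). In MEP the groups overlapped, at 8.96, 14.0 and 7.16 FPKM in control and 20.03, 17.2 and 6.80 in leukemic libraries, a difference of 0.43 ± 0.40 (adjusted p = 0.456).

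For several genes of these steps the level in the table is uncertain, because near-identical copies exist elsewhere among the GENCODE M21 transcripts. At least 95% identity over at least 500 bases was found in 72 other genes for Gapdh, 70 of them pseudogenes, and in 3 for Eno1 and Bnip3, 2 for Pgk1 and Ldha, and 1 each for Gpi1, Pfkfb2, Pgam1, Pkm, Ldhb and Pdhb. Gapdh, glyceraldehyde phosphate dehydrogenase, was at 6.79 to 27.2 FPKM, Eno1, the main enolase gene, at 2.35 to 10.1 and Pgam1, phosphoglycerate mutase, at 0 to 6.93. Those levels stand far below the 204 to 819 FPKM of Aldoa and Tpi1, enzymes of neighbouring steps, and none of the 3 genes passed the test in MEP or marrow. Pgk1, phosphoglycerate kinase, was at 7.71, 7.30 and 5.89 FPKM in control MEP, at 9.74, 14.9 and 11.01 in leukemic MEP, at 7.78, 9.94 and 8.84 in control marrow, and at 16.8, 21.3 and 20.04 in GFP+ marrow. It rose by 0.68 ± 0.23 in MEP (adjusted p = 0.0485) and in marrow by 1.05 ± 0.23 (adjusted p = 0.0146). The MEP call was lost in 15 of 22 alternatives, among them the replicate block (adjusted p = 0.0563), equal FPKM totals (0.0649) and quantile normalization (0.168). Eno2 had at most 26 reads in any library.

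**Figure D3:**
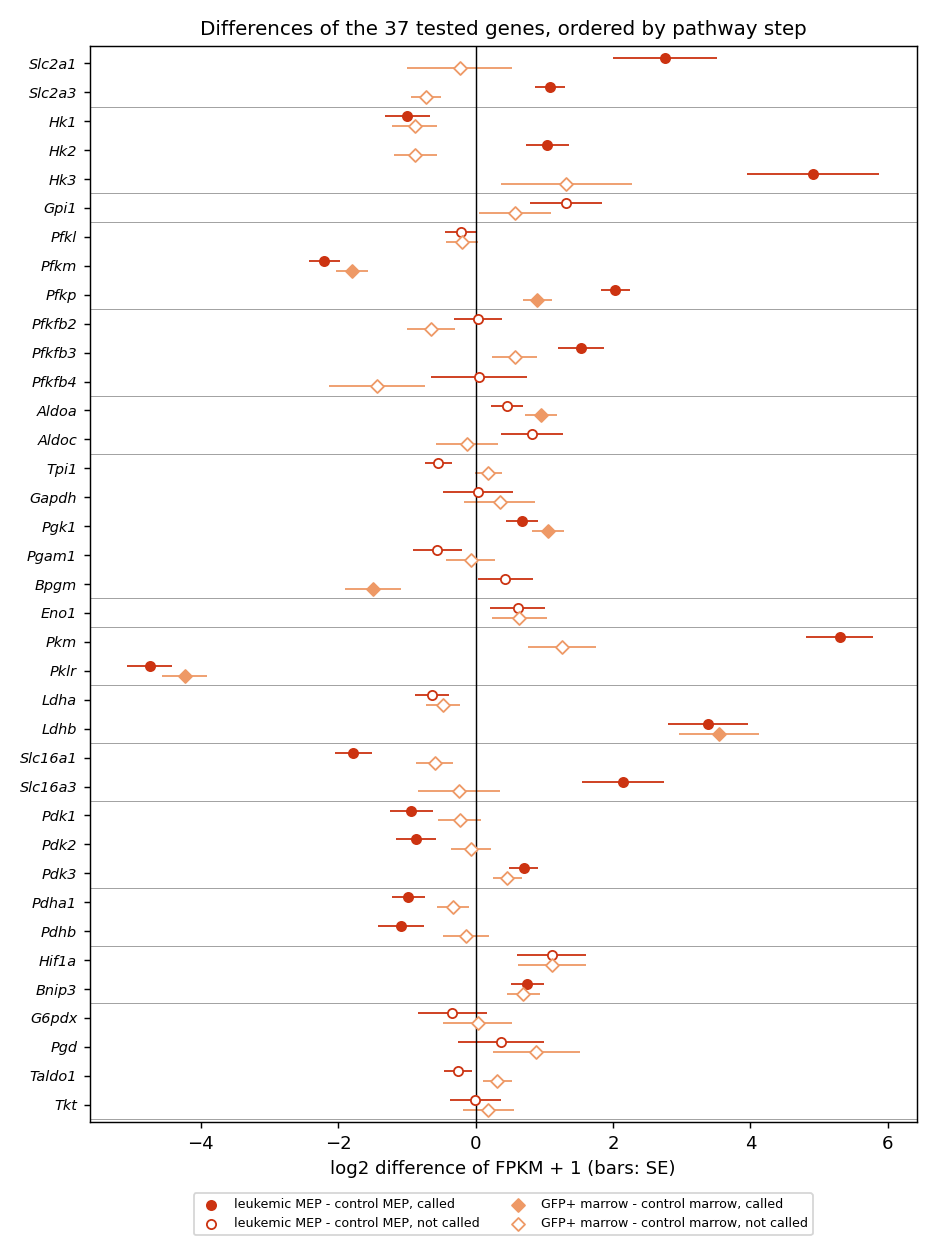
Points give the log2 difference of FPKM + 1 (x axis) with its SE for each of the 37 tested genes, ordered by pathway step and separated by lines; red circles are leukemic minus control MEP, orange diamonds GFP+ minus control marrow, and filled symbols passed the test. Pkm (5.30) and Hk3 (4.91) lie farthest to the right in MEP and Pklr (-4.74) farthest to the left, while the 4 pentose phosphate genes at the bottom are all open.

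Lactate dehydrogenase is a tetramer of the subunits made by Ldha and Ldhb, of which the Ldhb form favours the use of lactate. Ldhb (chr6:142490249-142507957) was at 4.45, 3.20 and 2.46 FPKM in control MEP, at 30.8, 16.9 and 155 in leukemic MEP, at 33.4, 22.8 and 27.7 in control marrow, and at 372, 268 and 369 in GFP+ marrow. It was higher in each Prdm16s library than in each control library of its population. Ldhb rose by 3.38 ± 0.58 in MEP (adjusted p = 0.00131; 2.47 ± 0.29 without leukemic MEP 3) and in marrow by 3.54 ± 0.58 (adjusted p = 0.00266). Ldha was at 713 to 830 FPKM in control MEP, 337 to 588 in leukemic MEP, 454 to 541 in control marrow and 325 to 418 in GFP+ marrow. Its differences of -0.63 ± 0.25 in MEP (adjusted p = 0.0794) and -0.48 ± 0.25 in marrow (adjusted p = 0.263) did not pass. Ldhb held 5.29% ± 1.43 of lactate dehydrogenase FPKM in control marrow and 47.9% ± 7.70 in GFP+ marrow. In MEP it went from 0.449% ± 0.148 to 13.1% ± 15.97, with 31.5% in leukemic MEP 3.

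Lactate leaves or enters cells through the monocarboxylate transporters MCT1 and MCT4, encoded by Slc16a1 and Slc16a3. Slc16a1 was at 140, 81.4 and 83.8 FPKM in control MEP and at 25.6, 30.4 and 28.0 in leukemic MEP. The 3 leukemic libraries were alike and well below the controls, and Slc16a1 fell by 1.78 ± 0.27 (adjusted p = 0.000539). In marrow it was at 59.8, 53.2 and 53.6 against 24.6, 46.8 and 41.7 FPKM, and its difference was -0.59 ± 0.27 (adjusted p = 0.2). Slc16a3 was at 1.21, 1.41 and 0.325 FPKM in control MEP and 2.93, 4.89 and 25.3 in leukemic MEP, and rose by 2.14 ± 0.60 (adjusted p = 0.0202), or 1.33 ± 0.41 without leukemic MEP 3 (adjusted p = 0.0309). Slc16a1 still held 76.1% ± 20.6 of the 2 genes' FPKM in leukemic MEP, after 99.02% ± 0.666 in control MEP.

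The E1 part of pyruvate dehydrogenase, encoded by Pdha1 and Pdhb, starts the entry of pyruvate carbon into the citric acid cycle, and the Pdk kinases switch it off. Pdha1 was at 99.4, 65.4 and 71.3 FPKM in control MEP and 36.9, 35.6 and 44.6 in leukemic MEP, and fell by 0.98 ± 0.24 (adjusted p = 0.00994). Pdhb was at 239, 301 and 277 FPKM in control MEP and 159, 202 and 64.3 in leukemic MEP, and fell by 1.08 ± 0.33 (adjusted p = 0.0314), or by 0.60 ± 0.18 without leukemic MEP 3 (adjusted p = 0.0296). Both subunit genes were thus lower in every leukemic MEP library. Among the kinases, Pdk1 fell by 0.94 ± 0.31 (adjusted p = 0.0435) and Pdk2 by 0.86 ± 0.29 (adjusted p = 0.0461; 0.116 without leukemic MEP 3). The calls of Pdk1 and Pdk2 were lost in 11 and 17 of 22 alternatives. Pdk3, which held most of the family's FPKM in each group, was at 83.8, 69.3 and 78.9 FPKM in control MEP and 134, 158 and 94.6 in leukemic MEP and rose by 0.70 ± 0.21 (adjusted p = 0.0278). None of these 5 genes passed in marrow.

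Hif1a encodes the subunit of the hypoxia-inducible factor that is stabilised when oxygen is low, and Bnip3, a mitophagy gene, is among its targets. Hif1a was at 6.91, 5.10 and 5.80 FPKM in control MEP, at 7.54, 7.85 and 42.4 in leukemic MEP, at 15.6, 10.5 and 11.3 in control marrow, and at 26.4, 33.5 and 24.1 in GFP+ marrow. Neither difference passed (1.11 ± 0.50, adjusted p = 0.123, and 1.12 ± 0.50, adjusted p = 0.195), although the groups did not overlap in MEP or in marrow. Without leukemic MEP 3 the MEP difference was 0.33 ± 0.25 (adjusted p = 0.357). Bnip3 was at 5.51 to 5.89 FPKM in control MEP and at 10.8, 12.96 and 7.63 in leukemic MEP, and rose by 0.75 ± 0.24 (adjusted p = 0.0348). Its call was lost in 11 of 22 alternatives. The Hif1a protein is regulated by its breakdown, which RNA levels do not show.

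Among the pentose phosphate genes, 3 of 4 turned on a single leukemic MEP library. G6pdx, whose enzyme makes the first NADPH of the pathway, was at 86.1, 61.2 and 61.1 FPKM in control MEP and at 35.5, 26.3 and 164 in leukemic MEP. Pgd, whose enzyme makes the second, was at 62.0, 54.7 and 47.2 FPKM in control MEP and 37.5, 29.7 and 307 in leukemic MEP. For both, leukemic MEP 1 and 2 lay below all control MEP libraries and leukemic MEP 3 above them. Tkt, transketolase, had the same layout at 214, 204 and 173 FPKM against 149, 118 and 425. With all libraries the differences were -0.34 ± 0.50 for G6pdx, 0.37 ± 0.63 for Pgd and -0.01 ± 0.37 for Tkt, and none passed (adjusted p = 0.654, 0.705 and 0.995). Without leukemic MEP 3 all 3 genes fell, G6pdx by 1.14 ± 0.22 (adjusted p = 0.00269), Pgd by 0.69 ± 0.19 (adjusted p = 0.0177) and Tkt by 0.56 ± 0.19 (adjusted p = 0.0419). Taldo1, transaldolase, did not pass in either fit, at 481 to 616 FPKM in control MEP and 384 to 514 in leukemic MEP. Granulocyte and monocyte marker sums were high in leukemic MEP 3, as given above, and their part in these levels was not tested.

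In marrow none of the 4 pentose phosphate genes passed. Pgd was at 101, 93.1 and 96.6 FPKM in control marrow and 171, 165 and 206 in GFP+ marrow without overlap, a difference of 0.88 ± 0.63 (adjusted p = 0.433; 0.00324 without leukemic MEP 3 in the fit). Xist, the RNA of the inactive X chromosome, was at 39.2 to 57.1 FPKM in replicates 1 and 2 of leukemic MEP and of GFP+ marrow and at most 0.0904 FPKM in the other 8 libraries. Without leukemic MEP 3, the MEP difference in limma was 5.70 ± 1.17 for Xist (adjusted p = 0.00343). For Ddx3y, a gene of the Y chromosome, it was -4.04 ± 0.99 (adjusted p = 0.00952). The part of sex in the levels of the genes described was not tested. Of the genes described, G6pdx, Pgk1, Pdha1 and Pdk3 lie on the X chromosome. In leukemic MEP 3 and GFP+ marrow 3, where Xist was near 0 as in the controls, Pgk1 was at 11.01 and 20.04 FPKM, above every control library of its population, as in replicates 1 and 2. Pdha1 and Pdk3 in leukemic MEP 3, at 44.6 and 94.6 FPKM, also lay outside the range of control MEP, on the same side as in leukemic MEP 1 and 2. G6pdx did not keep its side: in leukemic MEP 1 and 2 its level was 35.5 and 26.3 FPKM, and in leukemic MEP 3 it was 164, against 61.1 to 86.1 in control MEP.

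**Figure D4:**
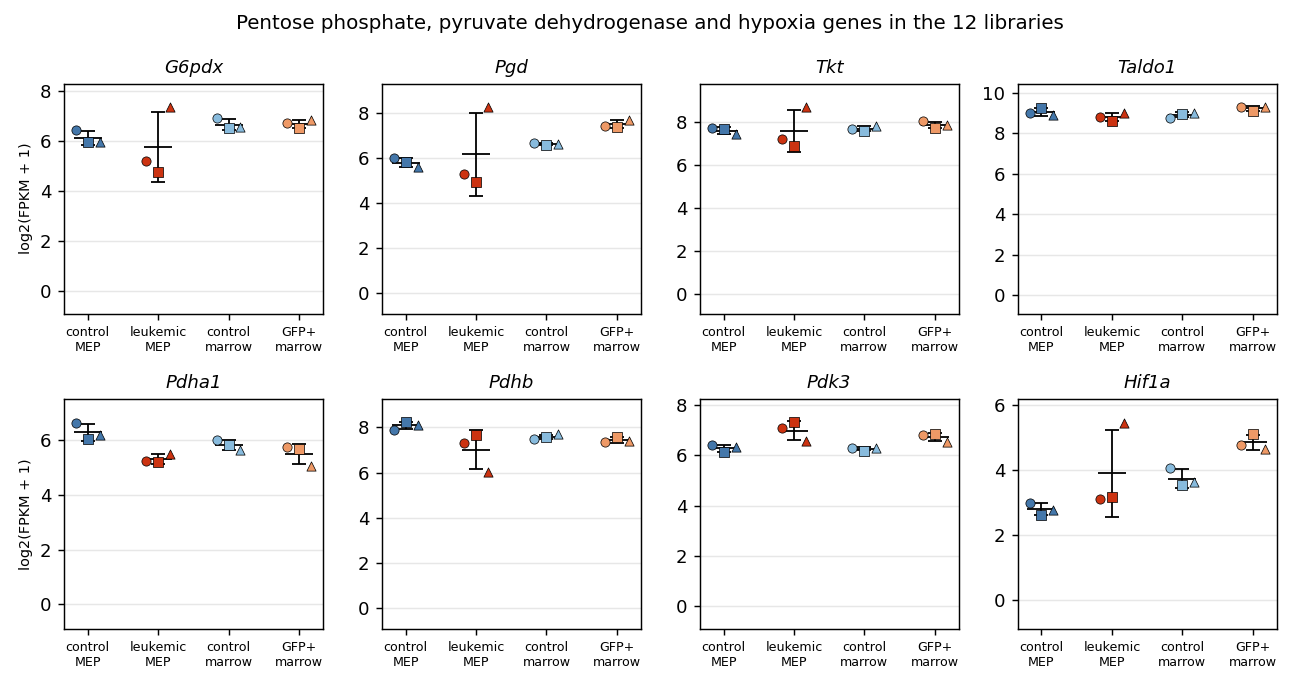
Each panel plots log2(FPKM + 1) of a gene (y axis) in the 4 groups, with circles, squares and triangles for replicates 1, 2 and 3 and bars for the mean ± SD. For G6pdx, Pgd and Tkt the leukemic MEP triangle (164, 307 and 425 FPKM) lies above all control MEP points while the circle and square lie below them; Pdha1 and Pdhb are lower in all 3 leukemic MEP libraries.

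Whether the change differed between the 2 populations was tested in the same fit, as the change in MEP minus the change in marrow. Pkm (4.04 ± 0.69, adjusted p = 0.00572), Hk2 (1.93 ± 0.44, adjusted p = 0.0287), Slc2a3 (1.80 ± 0.31, adjusted p = 0.0059) and Pfkp (1.13 ± 0.29, adjusted p = 0.0475) passed, all with the larger value in MEP. Thus 4 of 37 genes were higher and 0 lower, beside 4.52% and 0.366% of all genes. For Slc2a3 and Hk2 the 2 changes pointed in opposite directions, although the marrow change of neither passed on its own. Pfkp did not pass under the replicate block (adjusted p = 0.0824). Without leukemic MEP 3, Pgd (-1.57 ± 0.25, adjusted p = 0.00192) and G6pdx (-1.17 ± 0.30, adjusted p = 0.0282) also differed between the populations, in the other direction. Hk3 (1.95 ± 0.27, adjusted p = 0.000782) and Bpgm (2.37 ± 0.46, adjusted p = 0.00602) passed there as well. For Pfkm, Pklr and Ldhb, called in both populations, the differences of -0.40 ± 0.32, -0.51 ± 0.46 and -0.17 ± 0.82 did not pass, which does not show that the changes were equal.

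The controls themselves differed, and both contrasts above start from them. Against control marrow, control MEP had higher Pfkm (1.19 ± 0.23, adjusted p = 0.00336) and Pklr (1.74 ± 0.32, adjusted p = 0.00284). They had lower Pkm (-5.66 ± 0.49, adjusted p = 1.11e-05), Hk3 (-6.26 ± 0.96, adjusted p = 0.000714), Slc2a1 (-3.11 ± 0.76, adjusted p = 0.0148), Ldhb (-2.74 ± 0.58, adjusted p = 0.00659), Slc16a3 (-2.63 ± 0.60, adjusted p = 0.0097) and Hk2 (-2.47 ± 0.31, adjusted p = 0.0002). Bpgm, Pfkfb3, Pfkp, Pgam1 and Slc2a3 were lower too, by 0.98 to 1.59. In all 2 genes were higher and 11 lower, beside 2.63% and 12.3% of all genes. With equal FPKM totals the counts were 4 and 9, for which the shares of all genes are not given here. The median was -0.31, against 0.03 over all genes. This comparison shares its libraries with the other 3, so their values are given side by side only.

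Summed over the 38 genes, the level was 3226 ± 288 FPKM (SD, n = 3) in control MEP, 3222 ± 1018 in leukemic MEP, 3164 ± 153 in control marrow and 4336 ± 212 in the GFP+ libraries. The leukemic MEP sums were 2806, 2478 and 4382 FPKM, so leukemic MEP 1 and 2 lay below all control MEP libraries (2933 to 3508) and leukemic MEP 3 above them. These sums are not scaled to the FPKM total of all genes, and the order of the libraries may depend on it. That total was 425083, 419066 and 484187 in leukemic MEP 1, 2 and 3, and 393786 to 507040 in control MEP. It was 470617 to 529156 in control marrow and 571815 to 622546 in GFP+ marrow. Aldolase FPKM was 337 ± 60.6, 468 ± 104, 391 ± 53.7 and 754 ± 56.3 in the 4 groups in the same order, and pyruvate dehydrogenase E1 FPKM 351 ± 14.1, 181 ± 65.5, 248 ± 6.24 and 219 ± 20.2.

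Of 71 further genes of these pathways, 57 were tested, and 12 rose and 12 fell in MEP, beside the 13.7% and 12.3% of all genes, with a median of 0.10. Dlat, the E2 part of pyruvate dehydrogenase, was at 65.2, 46.6 and 42.4 FPKM in control MEP and 19.1, 19.2 and 19.5 in leukemic MEP, and fell by 1.35 ± 0.26 (adjusted p = 0.00279). Dld and Pdhx, other parts of that complex and named after their values were seen, also fell (-0.93 ± 0.29, adjusted p = 0.0333, and -0.87 ± 0.22, adjusted p = 0.0134). With Pdha1 and Pdhb, 5 genes of the complex itself were thus lower. Minpp1, a phosphatase of inositol phosphates that can also act on 2,3-bisphosphoglycerate, fell from 252, 196 and 197 FPKM to 34.6, 37.02 and 43.1 in MEP (-2.46 ± 0.29, adjusted p = 8.98e-05) and in marrow by 1.43 ± 0.29 (adjusted p = 0.00902). Pgm2, which interconverts sugar phosphates, rose by 1.97 ± 0.39 (adjusted p = 0.00316). The related gene Pgm1, named after its values were seen, was called lower. Without leukemic MEP 3 its difference did not pass (-0.71 ± 0.28, adjusted p = 0.0805).

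Glycogen is the stored form of glucose, and 5 of its 6 tested genes rose in MEP, where 13.7% of all genes did. These were Gbe1, Gys1, Pygb, Pygl and Ugp2, named after their values were seen, with differences between 1.28 and 2.06. Without leukemic MEP 3 their differences were 0.94 to 1.15, and Gbe1 (adjusted p = 0.0766) and Pygb (adjusted p = 0.0859) no longer passed. Pygl and Gys1 reached 204 and 47.3 FPKM in leukemic MEP 3, against 27.7 to 31.3 and 5.22 to 6.44 in leukemic MEP 1 and 2. Of the 8 further pentose phosphate genes tested, Rpia and Rbks, of ribose metabolism and likewise named after their values were seen, fell (-1.08 ± 0.26, adjusted p = 0.00968, and -1.36 ± 0.29, adjusted p = 0.00479), and none rose.

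Among 17 further genes of the hypoxia response, 4 rose and 1 fell in MEP, beside 13.7% and 12.3% of all genes. Car9, a carbonic anhydrase and a common marker of hypoxia, was at 2.25, 2.88 and 2.21 FPKM in control MEP and 12.9, 16.4 and 10.3 in leukemic MEP, and rose by 2.02 ± 0.23 (adjusted p = 7.97e-05). Ndrg1 rose by 1.99 ± 0.27 (adjusted p = 0.000239) and Egln3, a prolyl hydroxylase that marks HIF proteins for breakdown, by 2.67 ± 0.56 (adjusted p = 0.00446). The fourth, Ddit4, and the gene that fell, Hif3a, are named after their values were seen (1.57 ± 0.53, adjusted p = 0.047, and -1.30 ± 0.33, adjusted p = 0.0134). Without leukemic MEP 3 Ddit4 did not pass (adjusted p = 0.0895), and Ankrd37 (1.45 ± 0.35, adjusted p = 0.00969) and Bnip3l (0.85 ± 0.22, adjusted p = 0.014), also named after their values were seen, did. Every leukemic MEP library was at or above the lowest control marrow library for Car9 and Ndrg1, whereas Egln3 in leukemic MEP 2, at 2.56 FPKM, was below the 5.45 to 6.30 of control marrow. In marrow, where 3.02% of all genes rose and 6.03% fell, 2 of the 57 rose, Vegfa (1.59 ± 0.39, adjusted p = 0.0243) and Mxi1 (0.91 ± 0.26, adjusted p = 0.0488), and 2 fell, Minpp1 and the sugar transporter gene Slc2a6 (-2.15 ± 0.28, adjusted p = 0.000566). Slc2a6 was at 4.20 to 5.96 FPKM in control marrow and at 0 to 0.544 in GFP+ marrow.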

How the data were processed

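The deposited table gives FPKM values of 24107 genes in 12 libraries, computed by the authors before deposition. Per the labels' protocols, cDNA was made with Smart-seq2 and libraries with Nextera XT. Per the submitters' processing notes, STAR 2.5.3a, DESeq2 1.18.1, CASAVA, bcl2fastq and mm10 were used. The sources used here name no read counter and no annotation. Every value of the 16728 genes above 0 gave whole reads (tolerance 1e-04 reads), and these reads set the depths given (0.572 to 9.71 M reads). The depth limits low genes, and intervals from reads would cover counting error only.

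Groups came from the labels. The test was limma 3.58.1 (R 4.3.3) with trend on log2(FPKM + 1), the 4 groups in 1 fit with 8 residual degrees of freedom, over 11462 genes with at least 1 FPKM in at least 3 libraries, at a Benjamini-Hochberg adjusted p below 0.05 over all of them. In simulated data with 11203 genes, limma called 82% of genes changed 4-fold and 6% of those changed 2-fold in MEP, and 80% and 5% in marrow. Unchanged genes made up 5 of 93 and 6 of 91 calls. The simulation gave every gene the same dispersion of 0.1 in all libraries, and changed only genes of at least 5 FPKM in both control groups. Its shares may not hold for genes lower in control MEP, such as Pkm, Hk3 and Slc2a1. They may not hold either for a group with a library set apart, as in leukemic MEP. Replicate numbers did not pair control with Prdm16s libraries (same-number r from -0.157 to -0.052 between the MEP groups and from -0.062 to 0.02 between the marrow groups). Same-number r was 0.497, 0.285 and 0.073 between the control groups and 0.086, 0.215 and 0.149 between the Prdm16s groups, so in neither did every pair exceed 0.1. The members, lists and tests were chosen with earlier results of these data known. Named were all 38 members and, of 71 other pathway genes, up to 6 called genes with the smallest p in MEP and in marrow. Promoter windows were from RefSeq (GRCm38.p6) and gene positions from RefSeq. Alternatives were another constant (0.1 FPKM), other filters, 2 other scalings, array weights, voom on the recovered reads, fits of only the groups compared, the replicate block and leaving out each library. Omitting the 2 libraries of lowest depth was added after seeing the data.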

Additional observations from a re-analysis of the deposited data

Results flagged for a closer look

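In 4 of the 37 tested genes the change in MEP differed from the change in marrow, by a test of the difference itself. The difference of log2 changes was 4.04 for Pkm, 1.93 for Hk2, 1.80 for Slc2a3 and 1.13 for Pfkp. For Pkm and Pfkp both changes were upward and the one in MEP was larger, and in control MEP, the starting point, both genes were lower than in control marrow. For Slc2a3 and Hk2 the values were 1.08 and 1.05 in MEP and -0.72 and -0.88 in marrow, where they did not pass the test. Slc2a3 and Pkm passed under every alternative run for this comparison, and Hk2 and Pfkp failed in 9 and 13 of 21.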

How the results depend on the processing

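Of the 44 calls on single genes in the 4 comparisons, 21 held under every alternative run and 23 were lost under at least 1. In MEP, Hk3, Ldhb, Pfkfb3, Pfkm, Pfkp, Pklr, Pkm, Slc16a1 and Slc2a3 held under all 22, and in marrow Ldhb, Pfkm and Pklr did. The cause of the other losses was not tested. Pgd reversed in MEP, from 0.37 to -0.69, when the 2 libraries of lowest depth were omitted, and ranged from -0.69 (without leukemic MEP replicate 3) to 0.98 (without replicate 2) when 1 library was left out. A further 132 sign changes were of values called under neither setting.

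The counts in this section stand without the shares of all genes called under the same settings, so they do not set these genes apart. Leaving out 1 library at a time gave 6 to 12 genes higher and 4 to 10 lower in MEP, 1 to 10 and 2 to 5 in marrow, 2 to 6 and 0 to 2 for the difference of changes, and 2 to 5 and 7 to 15 for control MEP against control marrow. Array weights gave 11 and 9 in marrow, 11 and 7 for the difference, and 8 and 19 for the controls. Fits of only the groups compared gave 7 higher and 4 lower in MEP, 9 and 5 in marrow, and 4 higher for the controls. Fewer were lower in MEP with no filter on low values (4), with libraries rescaled to equal FPKM totals (5) and with quantile normalization (5). Equal totals gave 2 higher in marrow and 4 in the controls. Quantile normalization gave 2 higher for the difference, voom on recovered reads 6 lower in marrow and 4 higher in the controls, and the constant of 0.1 FPKM 1 higher in the controls. Omitting the 2 libraries of lowest depth gave 9 higher in marrow, 2 lower for the difference and 5 higher in the controls. With 1 FPKM added to both pyruvate kinase genes, the Pkm share was 97.7% in leukemic MEP and 99.7% in GFP+ marrow.

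With the replicate number as a block, 11 genes were higher and 7 lower in MEP, 4 and 3 in marrow, 4 and 0 for the difference and 2 and 11 for the controls. The numbers share no stated source, so the replicate block is no pairing, although each leukemic MEP and GFP+ marrow library correlated best with its own number in the other group. Xist levels, as given above, also split the leukemic MEP and GFP+ marrow libraries by the same replicate numbers. These hints come from the data, not the design. Whether same-numbered libraries of these groups share a mouse is not stated. The main test of the difference of changes treated them as independent. Low depth limits Slc2a1 and Hk3 in control MEP, with 2 to 8 reads a library, and Aldoc, Bnip3, Pdk2, Pgam1 and Pklr in leukemic MEP 3, with at most 8.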
